A study of Homo sapiens with 6 samples.

Results

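E2F7 binding was compared between senescent fibroblasts with RB knockdown and growing fibroblasts, from 1 peak list of each state. The peaks were chosen by list and by chromosome (1 to 22 and X), which left 43643 peaks of the RB knockdown library and 9466 of the growing library. Together these are 53109 of the 63334 peaks in the 3 lists of the series, the third being from quiescent cells. IMR90 is a fibroblast line from human fetal lung. The senescent cells carried an ER-Ras vector, a Ras fused to an estrogen receptor domain that tamoxifen switches on, together with an RB hairpin, and were collected 4 days after tamoxifen. The growing cells have no treatment in the labels, although the protocol text attached to every sample mentions ER-Ras and hairpins. Both ChIPs used 10 µg of the same E2F7 antibody, and the caller set both lists against a common control. The 2 states therefore differ in Ras, tamoxifen, the RB hairpin and growth at once, and the parts of these in a difference cannot be told apart. No value of the files bears on the depth of the RB knockdown or on the antibody's specificity, which were not tested.

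E2F7 is an atypical member of the E2F transcription factors. It carries a pair of DNA-binding domains, needs no dimerization partner and does not bind the retinoblastoma protein RB, and it acts mainly as a repressor of genes for S phase entry and DNA replication. RB restrains the classical activating E2Fs and is known for holding E2F target genes silent in senescence, the lasting arrest that oncogenic Ras causes in fibroblasts. The peak lists place E2F7 on genome coordinates and carry no gene names. Coordinates below are of human build hg18, for which no sequence or gene annotation was used here, so each site is given by position alone.

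With RB knockdown, E2F7 had many more called sites than in growing cells, and most sites of either list did not overlap a site of the other. Of the RB knockdown peaks, 5.64% (95% exact interval 5.43% to 5.86%, 2462 peaks) overlapped a growing peak by 1 bp or more. Of the growing peaks, 23.5% (22.7% to 24.4%, 2226 peaks) overlapped an RB knockdown peak. The partnered peaks held more than their share of the tags, where a tag is an aligned ChIP read. In the RB knockdown list they were 5.64% of peaks with 11.5% of the tags in peaks, and in the growing list 23.5% of peaks with 48.4% of the tags. There was 1 library per state, so all values describe these libraries, and intervals cover counting error only. The caller's median false discovery rate (FDR) was 1.21% over the RB knockdown peaks and 72.6% over the growing peaks, and counts of growing peaks are to be read with that limit. The RB knockdown library held 23379790 tags after duplicate filtering and the growing library 22628990.

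The share of RB knockdown peaks with a growing partner was higher in classes with more tags. Of RB knockdown peaks under 20 tags, 2.05% had one. The share was 6.50% at 50 to 99 tags, 11.2% at 100 to 199 tags and 34.3% at 200 tags or more (253 of 737, 30.9% to 37.9%). With summits also required to lie within 200 bp, it was 17.1% at 200 tags or more. Even of the 86 RB knockdown peaks with at least 500 tags, 36 lacked a growing peak. At 1000 tags or more, 20 of 21 RB knockdown peaks had a growing partner.

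The share of growing peaks with an RB knockdown partner climbed further with their tags. Among growing peaks of under 20 tags, 2.38% had a partner (77 of 3233). The share was 8.68% at 20 to 29 tags, 35.4% at 30 to 49 tags and 82.2% at 50 to 99 tags. It reached 93.9% at 100 to 199 tags (322 of 343) and 94.4% at 200 tags or more (85 of 90). With summits also required to lie within 200 bp, the share was 45.6% at 50 to 99 tags. By that stricter limit it was 49.0% at 100 to 199 tags and 44.4% at 200 tags or more. Of growing peaks with 200 tags or more, 5 had no RB knockdown peak. The median FDR of growing peaks stayed high in most classes. It was 72.2% under 20 tags, 74.75% at 20 to 29 tags, 73.1% at 30 to 49 tags and 71.3% at 50 to 99 tags. It was 46.7% at 100 to 199 tags and 3.79% at 200 tags or more. Peaks with more tags were also wider, with medians of 560 bp under 20 tags and 4277 bp at 200 tags or more. Within a class the shares of narrower and wider peaks had overlapping intervals. At 50 to 99 tags, split at 1536 bp, 82.0% of the narrower growing peaks (78.4% to 85.2%) and 82.3% of the wider ones (78.8% to 85.5%) had a partner. At 30 to 49 tags, split at 1015 bp, the shares were 35.5% and 35.3%.

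**Figure D1:**
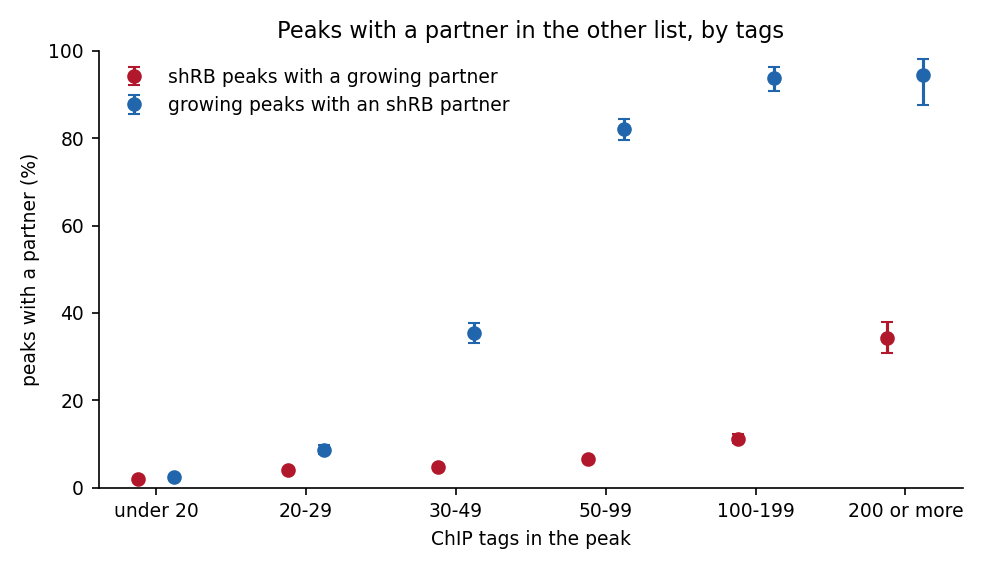
Share of peaks (in %) that overlap a peak of the other list by at least 1 bp, by the peak's ChIP tag number, for RB knockdown (shRB) peaks and growing peaks. Points are shares and bars 95% exact binomial intervals. Over the tag classes the RB knockdown series climbs from 2.05% to 34.3%, and the growing series from 2.38% to 94.4%.

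Merging overlapping peaks of both lists gave 2175 paired regions, 41181 regions with RB knockdown peaks alone and 7240 with growing peaks alone. A paired region mostly held 1 peak of each list (1886 regions, 86.7%). In 245 regions (11.3%) a single growing peak was joined with 2 or more RB knockdown peaks, and in 25 regions (1.15%) a single RB knockdown peak was joined with 2 or more growing peaks. A shared site was more often divided in the RB knockdown list. The caller used a fragment length of 125 bp for RB knockdown and 200 bp for growing cells. The part of that setting in the division was not tested.

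In the 1886 regions with 1 peak of each list, the RB knockdown peak had a median width of 882.5 bp and the growing peak 1210 bp. The RB knockdown peak lay wholly within the growing peak in 835 (44.3%), and the growing peak within the RB knockdown peak in 145 (7.69%). The remaining 906 (48.0%) were staggered. Where the growing peak lay inside, the RB knockdown peak was broad, with a median of 2108 bp against 1343 bp for the growing peak. The RB knockdown summit, the position of highest pileup, fell inside the growing peak in 90.3% of these regions. The growing summit fell inside the RB knockdown peak in 82.8%.

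Tags were scaled to RPM, the tags per 1000000 filtered tags of their library, and summed per region. The median paired region had 2.91 RPM with RB knockdown (quartiles 1.58 and 5.69) and 2.43 in growing cells (1.59 and 3.76). The median ratio of RB knockdown over growing was 1.19-fold, a log2 ratio of 0.25 (95% order-statistic interval over regions 0.22 to 0.29). RB knockdown was the higher state in 1375 of 2175 paired regions (63.2%). With 1 library a state there was no test, and a 2-fold limit was used in its place. RB knockdown was at least 2-fold higher in 395 paired regions, 18.2% of the 2175, and at least 2-fold lower in 116, 5.33%. The ratios ran from -2.63 to 3.87 on the log2 scale. These regions had to be called in both lists, so sites at which growing cells had too few tags for a peak are not among them.

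Per kb of called length the picture was one-sided. The median paired region held 2.71 RPM per kb with RB knockdown and 1.80 in growing cells, and the median ratio was 1.49-fold (log2 0.57, interval 0.55 to 0.60). Density was higher with RB knockdown in 2102 of 2175 regions (96.6%). It was at least 2-fold higher in 387 (17.8%) and at least 2-fold lower in 0 (0%). Of the regions past 2-fold, 77.3% were higher with RB knockdown by tags per region and 100% by tags per kb. Called length enters the density directly, and RB knockdown peaks were the narrower. The caller's fragment length was 125 bp for RB knockdown and 200 bp for growing cells, and the narrowest called peaks were 153 bp and 285 bp, respectively. The part of that setting in the one-sided densities was not tested, so they cannot be read as a difference in binding alone. The called length with RB knockdown was 0.788 times that in growing cells at the median. Averaged over the caller's effective genome size, the libraries held 8.66 (RB knockdown) and 8.38 (growing) tags per kb, against medians over called peaks of 56.3 (RB knockdown) and 33.0 (growing) tags per kb.

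**Figure D2:**
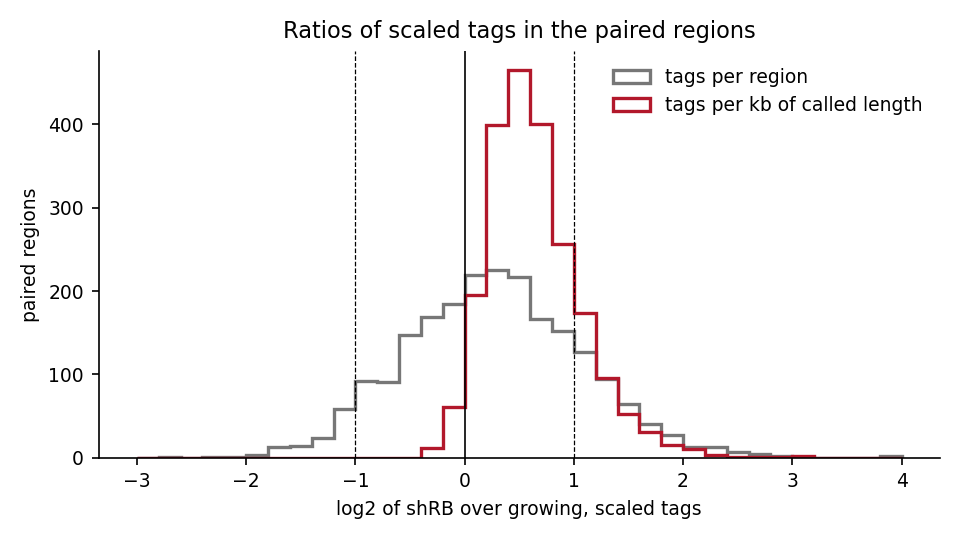
Number of paired regions by log2 ratio of RB knockdown over growing, for scaled tags per region and for scaled tags per kb of called length. Dashed lines mark 2-fold. The per-region ratios spread to both sides of 0 with a median of 0.25, and the per-kb ratios lie almost wholly above 0 with a median of 0.57.

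The ratio of RB knockdown over growing was higher at sites with more tags. Regions were ranked by the tags of both lists together. This sum is not neutral, because RB knockdown values spread more over the regions (quartiles 1.58 and 5.69 RPM) than growing values (1.59 and 3.76). Part of the rise over the classes can therefore come from the ranking, and how much was not tested. In the lowest quartile the median log2 ratio was -0.32, with RB knockdown the higher in 160 of 545 regions. It was 0.17 in the next quartile and 0.35 in the one after it. In the top quartile, above 216 tags in both lists together, it was 0.88, a 1.84-fold median, and RB knockdown was higher in 506 of 543 regions. There the median region held 210 tags with RB knockdown and 121 in growing cells. Per kb the medians of the same classes were 0.39, 0.50, 0.68 and 0.82. Ranked by growing tags alone, the median log2 ratio of scaled tags was -0.13 under 20 tags and 0.83 at 200 tags or more. The 163 paired regions whose growing peaks reached an FDR of at most 5% had a median log2 ratio of 0.52 (0.37 to 0.73), with RB knockdown higher in 127 of them.

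Ratios of tags followed ratios of called length. Across the 2175 regions, which share both libraries, the log2 ratio of scaled tags correlated with the log2 ratio of called length with Pearson r = 0.85 and Spearman rho = 0.83, given as a description. Tags are counted within the called edges, so the measures are linked. In the 1608 regions with less called length in RB knockdown, the median log2 ratio of scaled tags was 0.01. In the 566 regions with more called length in RB knockdown, it was 1.02, and 295 of these (52.1%) were at least 2-fold higher. Scaled tags per region in RB knockdown and growing cells correlated with r = 0.82 on the log2 scale (rho = 0.78).

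Broad growing sites nearly all had an RB knockdown partner. A width of at least 2000 bp was reached by 1058 RB knockdown peaks (2.42% of the list) and by 473 growing peaks (4.997%). Of these, 26.6% of the RB knockdown peaks and 92.2% of the growing peaks had a partner. The growing peaks of this width held at least 63 tags, with a median of 125, so width was not separated from tags here. At 5000 bp or more there were 79 RB knockdown peaks, 43 with a partner, and 29 growing peaks, 28 with a partner.

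The 6 paired regions with the most growing tags were all broad, from 10238 to 19433 bp, and all overlapped a quiescent peak. The region on chromosome 11 at 65020744 to 65033807 held 5250 tags with RB knockdown and 1817 in growing cells. That is 225 RPM with RB knockdown against 80.3 RPM in growing cells, a ratio of 2.80 (exact interval of the count ratio 2.65 to 2.95). A further region on chromosome 11, 62036796 to 62056228, held 5067 tags with RB knockdown and 1524 in growing cells, the highest ratio of the 6 at 3.22 (3.04 to 3.41). At 64944944 to 64955343 on the same chromosome the tags were 2919 with RB knockdown and 1293 in growing cells, a ratio of 2.19. These 3 regions lay in a stretch of 2997012 bp and were each more than 2-fold higher with RB knockdown.

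The other regions of that set were on chromosomes 1 and 17. On chromosome 1, 85815237 to 85826581, RB knockdown had 2235 tags and growing cells 1071, a ratio of 2.02 (1.88 to 2.17). On chromosome 17, 55269226 to 55279463, the tags were 2041 with RB knockdown and 812 in growing cells, a ratio of 2.43. The exception was chromosome 17, 45611878 to 45625875. It held 912 tags with RB knockdown and 913 in growing cells, a ratio of 0.967 with an interval of 0.881 to 1.06. The other 5 of the 6 were past 2-fold. Its growing peak covered 13998 bp as 1 block, while RB knockdown had 2 peaks over 11187 bp.

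**Figure D3:**
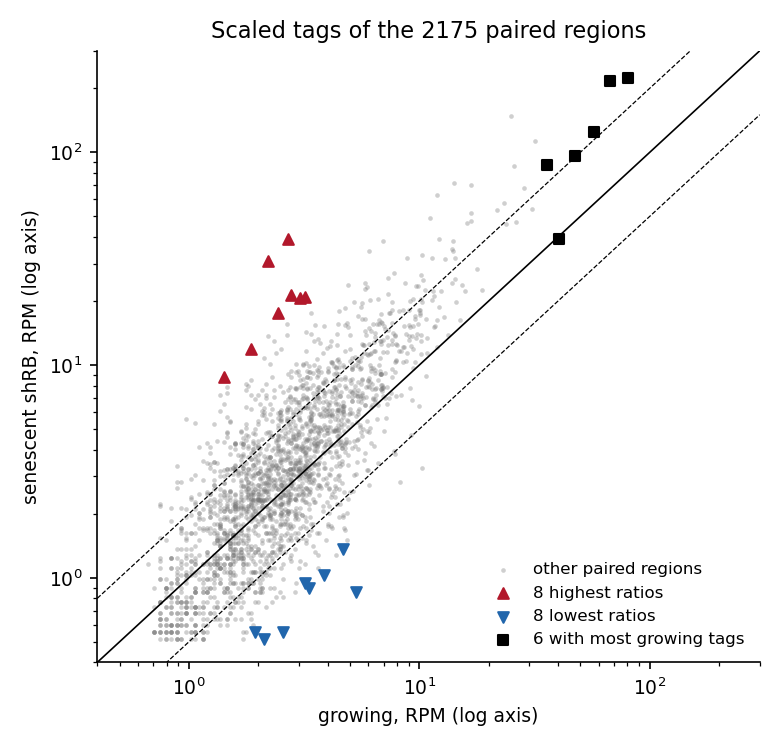
Scaled tags of each paired region in senescent RB knockdown cells (vertical) and growing cells (horizontal), in RPM on log axes. The solid line marks equality and the dashed lines 2-fold. The 6 regions with the most growing tags include 1 on the line, with 39.0 RPM in RB knockdown and 40.3 in growing cells.

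Among regions with at least 30 growing tags (1845), the 8 highest ratios ran from 6.20 to 14.6. The region that led them, on chromosome 2 at 227361845 to 227371534, had 919 tags with RB knockdown and 61 in growing cells (ratio 14.6, interval 11.2 to 19.2). Its called length was 9217 bp with RB knockdown and 1432 bp in growing cells. Per kb the ratio was 2.27, a smaller ratio than that of called length. On chromosome 15 at 41603260 to 41610241 the tags were 721 over 6982 bp with RB knockdown and 50 over 1415 bp in growing cells (ratio 13.96, 10.5 to 18.98). A region elsewhere on chromosome 2, at 215949968 to 215955962, had 500 tags with RB knockdown and 63 in growing cells, a ratio of 7.68.

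The remaining 5 of these regions also had more called length with RB knockdown. On chromosomes 17, 21 and 8 that length was summed over 2 RB knockdown peaks. On chromosome 14 the growing length was summed over 2 peaks. RB knockdown had 411 tags and growing cells 55 at 77796326 to 77801596 of chromosome 17. At 2754301 to 2759196 of chromosome 16 RB knockdown had 482 and growing cells 69. On chromosome 14, 104472174 to 104479075, it was 489 with RB knockdown and 72 in growing cells. Chromosome 21, 33845914 to 33849282, had 278 with RB knockdown and 42 in growing cells, and chromosome 8, 30549960 to 30553566, had 205 with RB knockdown and 32 in growing cells. In all 8 regions the RB knockdown peaks covered more than the growing peaks, and per kb the ratios were between 1.35 and 2.83. The growing FDR of these regions lay between 40.9% and 78.0%, and 6 of the 8 overlapped a quiescent peak.

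At the other end, the 8 lowest ratios ran from 0.161 to 0.296. Each paired 1 narrow RB knockdown peak with 1 wider growing peak. The RB knockdown peak lay wholly within the growing peak in 2 of the 8 regions and reached beyond it in 6. In those 6 the overlap ran from 24 bp, on chromosome 17, to 408 bp, on chromosome 16, so some of these ratios compare peaks that are largely apart. On chromosome 16 at 70662419 to 70665935, RB knockdown had 20 tags in a peak of 415 bp and growing cells 120 tags in a peak of 3510 bp (ratio 0.161, 0.0951 to 0.260). Per kb, RB knockdown was at 2.06 RPM and growing cells at 1.51, so the direction turned. On chromosome 19 there were 3 such regions. That at 10574225 to 10576227 had 13 tags with RB knockdown and 58 in growing cells. At 39436155 to 39437362 there were 13 with RB knockdown and 44 in growing cells, and at 11168042 to 11170174 there were 22 with RB knockdown and 72 in growing cells. On chromosome 6, 311546 to 312851, RB knockdown had 12 tags and growing cells 48, and on chromosome 17, 72872375 to 72875019, RB knockdown had 24 and growing cells 87. The last were at 7173729 to 7176034 of chromosome 12, with 21 tags in RB knockdown and 75 in growing cells, and at 35500957 to 35503939 of chromosome 11, with 32 in RB knockdown and 105 in growing cells. Across the 8, per-kb ratios ran from 0.997 to 1.43, and 7 of them were above 1. None of the 8 overlapped a quiescent peak, and their growing FDR lay between 18.2% and 77.6%.

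Summits of paired peaks lay close to each other for most pairs but not all. Each growing peak was set against the RB knockdown peak of largest overlap. The median summit distance over 2226 pairs was 173.5 bp (interval 160 to 190 bp). It was at most 50 bp in 438 pairs (19.7%), at most 100 bp in 765 (34.4%) and at most 200 bp in 1188 (53.4%). Pairs of peaks both at most 1000 bp wide had a median of 123.5 bp, with 64.7% within 200 bp.

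Long summit distances made up a larger share of the pairs with the most tags. Pairs whose growing peak held 200 tags or more had a median distance of 346 bp, with an interval of 116 to 1018 bp that contains the median of all pairs. Pairs whose growing peak had an FDR of at most 5% had a median of 148 bp (101 to 205 bp). Of the pairs with 200 growing tags or more, 33 of 85 (38.8%) lay over 1000 bp apart, against 7.59% of all pairs. Peak width bounds this distance, and growing peaks of 200 tags or more had a median width of 4277 bp. Over all growing peaks with a partner the median width was 1284.5 bp. Of the pairs with both peaks at most 1000 bp wide, 0 lay over 1000 bp apart. The part of width was not tested. At the longest region on chromosome 11, of 19433 bp, the summit of the peak with the most tags was compared between the 2 states. These summits were 11121 bp apart. At chromosome 17, 55269226 to 55279463, they were 52 bp apart. The summits of the peaks with the most tags were thus close at the chromosome 17 site and distant at the chromosome 11 site.

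**Figure D4:**
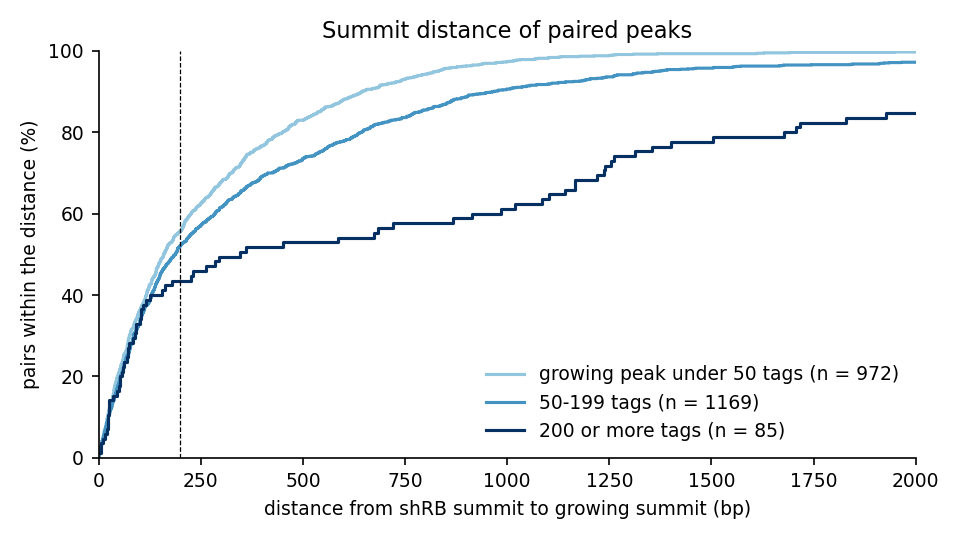
Cumulative share of pairs (in %) by distance in bp from the RB knockdown summit to the growing summit, for growing peaks of under 50, 50 to 199, and 200 or more tags. The dashed line marks 200 bp. The curves start together, and that of peaks with 200 or more tags flattens, with 38.8% of its pairs beyond 1000 bp.

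Overlap of 1 bp or more is a lenient limit, and stricter limits lowered the partner shares of both lists. At reciprocal overlap of 50% the shares were 3.36% of RB knockdown and 15.5% of growing peaks. With summits within 200 bp they were 2.80% of RB knockdown and 12.9% of growing peaks. Few pairs sat at the edge of the 1 bp limit itself. Of 2513 overlapping pairs, 43 shared at most 50 bp, with medians of 34 tags in RB knockdown and 37 in growing cells, and the smallest overlap was 2 bp. On the other side of the limit, 21 of the 7240 growing peaks without a partner lay within 50 bp of an RB knockdown peak, at a median of 31 tags.

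RB knockdown peaks with no growing partner numbered 41181, and the nearest growing peak was a median of 81162 bp away. Their median was 37 tags and 640 bp. The 5 with the most tags were led by a peak on chromosome 15, 37659999 to 37680339, of 20341 bp. It held 4689 tags, 201 RPM, with a caller fold enrichment of 20.2, and the nearest growing peak was 487459 bp away. It was the exception among the 21 RB knockdown peaks with at least 1000 tags. A quiescent peak overlapped it.

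The next held far fewer tags. On chromosome 2, 237888349 to 237897506, there were 913 tags, and on chromosome 3, 151607824 to 151617722, there were 883. A peak at 38792112 to 38795475 on chromosome 17 held 867 tags, and the last, at 121550350 to 121557139 on chromosome 11, held 860. Their caller FDR was 0%, and the nearest growing peaks were 13710 to 126044 bp away. The peaks on chromosomes 2 and 3 overlapped a quiescent peak and those on chromosomes 17 and 11 did not. A missing peak says that growing cells did not pass the caller's threshold there, not that E2F7 was absent.

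Growing peaks with no RB knockdown partner numbered 7240, with a median of 20 tags and 650 bp and a median distance of 18767 bp to the nearest RB knockdown peak. Of them 8 (0.110%) had an FDR no higher than 5%, as had 165 of the 2226 with a partner. Of these 8, 4 lay in a stretch of 19014 bp on chromosome 2, from 132732704 to 132751717, with 109 to 299 tags. The growing-only peak with the most tags, 303, was at 9803603 to 9810312 of chromosome 21. Chromosome 2 held the next, with 299 tags at 132735086 to 132737835 and 277 tags at 90972709 to 90976076. A peak at 39124247 to 39128881 of chromosome 10 had 258 tags, and one at 42567661 to 42570102 of chromosome 17 had 233. Enrichment of these 5 was 3.92-fold to 6.45-fold over local background by the caller, and FDR ran from 3.92% to 71.9%. The RB knockdown peak nearest to that on chromosome 21 was 3456110 bp away.

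Sites shared by RB knockdown and growing cells overlapped quiescent peaks at a higher share than sites of one state. Of the 2175 paired regions, 54.7% (52.5% to 56.8%) overlapped a quiescent peak, against 11.7% of RB knockdown-only regions and 3.08% of growing-only regions. Paired regions were also wider, with a median of 1509 bp against 640 bp for RB knockdown-only and 650 bp for growing-only regions. Neither width nor tags were matched in that comparison. Among peaks of at least 50 tags, those with a partner again had the higher share. This class has no upper limit, so tags and widths were not matched within it. The quiescent share of growing peaks was 53.9% at 50 to 99 tags and 81.1% at 200 tags or more. Of RB knockdown peaks, 65.3% with a growing partner and 17.8% without overlapped a quiescent peak. Of growing peaks, 65.2% (818 of 1254) with an RB knockdown partner and 20% (42 of 210, 14.8% to 26.1%) without did so. The share of unpaired growing peaks was thus not below that of unpaired RB knockdown peaks at this tag number, unlike over all regions. Paired regions with a quiescent peak had a median log2 ratio of 0.44, and those without of 0.03. They also held more growing tags, with medians of 65 where a quiescent peak overlapped and 44 where none did. All 3 lists were called against 1 control library, whose part in shared sites was not tested.

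Along the genome the excess of RB knockdown peaks was present on every chromosome and uneven. There were 6.14 RB knockdown peaks per growing peak on chromosome 5 and 2.96 on chromosome 19, with a median of 4.78 over the 23 chromosomes. Chromosomes 19, X, 22, 16 and 17 had the lowest ratios, from 2.96 to 3.41. Growing peaks had RB knockdown partners most often on chromosome 17 (37.8%, 33.9% to 41.8%) and chromosome 19 (36.4%, 32.1% to 40.8%). They had them least often on chromosome 18 (10.9%, 6.77% to 16.3%) and chromosome 13 (13.0%, 8.79% to 18.2%). The X chromosome had a low ratio, 2.97, and a low partner share, 16.4%, unlike chromosome 19 with a similar ratio. The median log2 ratio of scaled tags in paired regions was above 0 on 22 of 23 chromosomes, from -0.02 on chromosome 15 to 0.68 on chromosome 21.

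**Figure D5:**
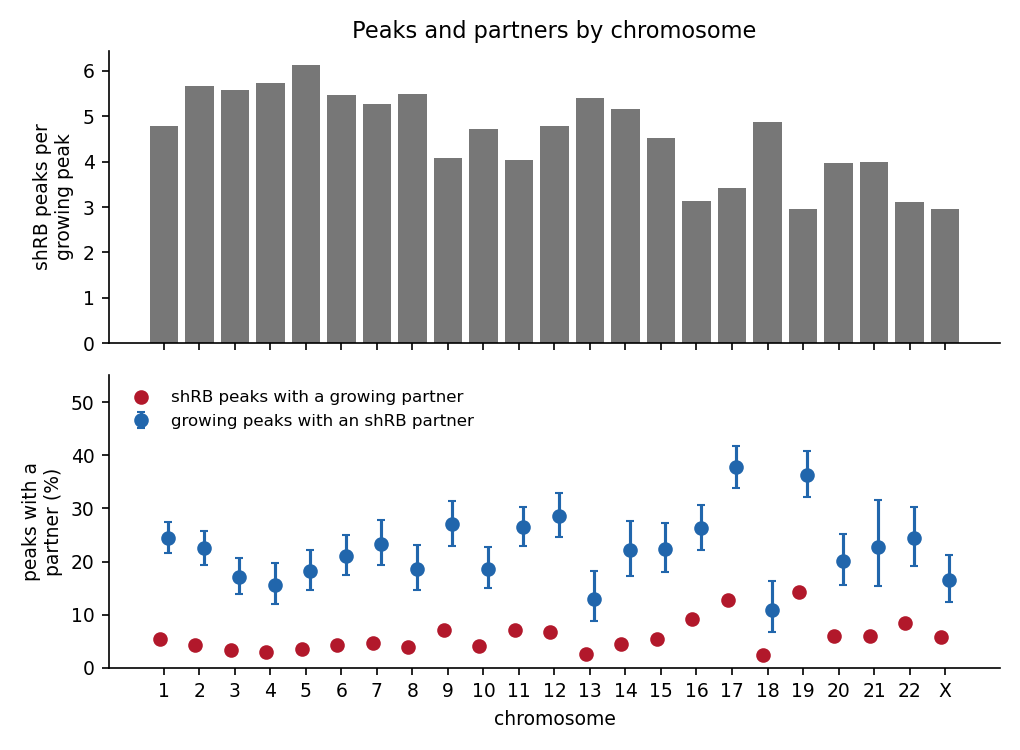
Upper panel: RB knockdown (shRB) peaks per growing peak on each chromosome. Lower panel: share of peaks (in %) with a partner in the other list, for RB knockdown peaks and for growing peaks, with 95% exact intervals on the growing points. Chromosomes 17 and 19 have the highest partner shares, and chromosome 18 the lowest.

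In bins of 1 Mb, RB knockdown had more peaks than growing cells in 2438 of 2718 bins and fewer in 169. The bins are those with a peak in any of the 3 lists. Both states had peaks in 2215 bins, RB knockdown alone in 354 and growing cells alone in 120. Peak numbers of RB knockdown and growing cells correlated across bins with Pearson r = 0.62 and Spearman rho = 0.59, as a description of bins that share both libraries and differ in gene and base content. The bin with the most RB knockdown peaks was chromosome 17, 72 to 73 Mb, with 75 RB knockdown and 18 growing peaks. Chromosome 5, 14 to 15 Mb, followed with 70 RB knockdown and 5 growing peaks, and chromosome 1, 154 to 155 Mb, with 69 RB knockdown and 23 growing peaks. Growing peaks were most numerous on chromosome 17, 7 to 8 Mb, with 62 RB knockdown and 29 growing peaks. Next came chromosome 9, 138 to 139 Mb, with 41 RB knockdown and 28 growing peaks, and chromosome 19, 1 to 2 Mb, with 55 RB knockdown and 28 growing peaks. The bin on chromosome 5 combined a count near the RB knockdown maximum with few growing peaks.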

How the data were processed

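The submitters' processing notes name Bowtie as aligner and hg18 as build. Each library was peak-called alone with MACS 1.4.1 against 1 control library, per the file headers, at a p-value cutoff of 1e-05 and with at most 2 tags kept per position. The deposited tag count is the number of ChIP tags in a peak. Fold enrichment is the authors' ratio to local background, the FDR is a deposited percent, and the deposited p-value score is -10*log10 p. Tags were 36 bp, and d was 125 bp for RB knockdown and 200 bp for growing cells, which can change widths and peak numbers. The identity of that control is not given in the sources used here.

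Here, 20 peaks outside chromosomes 1 to 22 and X were left out. Peaks were paired by overlap of at least 1 bp, regions were merged from both lists, and tags were scaled to RPM, the tags per 1000000 filtered tags of the header. Share intervals are exact (Clopper-Pearson), ratio intervals come from the exact binomial share of the tags, and intervals of medians are order-statistic ones; all are at 95% and cover counting error or spread over regions only. With 1 library per state no test was run. The pairing was tested on simulated data. Members and named regions were chosen with earlier results of these data known. Named were the 6 paired regions with most growing tags, the 8 highest and 8 lowest ratios among regions with at least 30 growing tags, the 5 unpaired peaks per list with most tags, and the 3 bins with most peaks per list. Python 3.11.15, pandas 2.3.3 and scipy 1.17.1 were used.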

Additional observations from a re-analysis of the deposited data

How the results depend on the processing

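At a -10*log10 p of at least 100 there were 12469 RB knockdown and 828 growing peaks, and 4.72% of the RB knockdown and 64.6% of the growing peaks had a partner. Paired regions then had a median log2 ratio of 0.40, 23.2% were at least 2-fold higher with RB knockdown, and the median summit distance was 150 bp. With the FDR held to 5% or less, RB knockdown kept 42755 peaks and growing cells 173. Partner shares were 0.477% of RB knockdown and 95.4% of growing peaks, the median log2 ratio 0.53, the share past 2-fold 28.8% and the summit distance 148 bp. At 30 tags or more per peak, 26813 RB knockdown and 3262 growing peaks remained, with partner shares of 6.98% in RB knockdown and 52.2% in growing cells, a median log2 ratio of 0.39 and 21.2% past 2-fold. With both lists at the 9466 strongest peaks, 14.9% of RB knockdown and 14.5% of growing peaks had a partner, the median log2 ratio was 0.55, 26.6% were past 2-fold and the summit distance was 158 bp.

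Stricter pairing lowered the shares, to 3.36% of RB knockdown and 15.5% of growing peaks at reciprocal overlap of 50% (summit distance 132 bp), and to 2.80% of RB knockdown and 12.9% of growing peaks with summits within 200 bp. Regions with 1 peak of each list had a median log2 ratio of 0.18, 16.2% past 2-fold and a summit distance of 158 bp. The median log2 ratio was 0.30 with raw tags and 0.57 per kb of called length. Scaling to tags outside peaks, an alternative chosen after seeing the data, gave 0.38 and 22.5% past 2-fold. The median log2 ratio stayed above 0 in every setting named here. The other 8 recomputed values lay within the interval of the reported value or within 1.5 times the reported count. The causes of these movements were not tested, apart from the smaller lists that thresholds leave by construction. No paired analysis was possible because each state has 1 library, and leaving out a library leaves no comparison. The smallest called peak held 12 tags with RB knockdown and 15 in growing cells. These numbers are not limits of detection, and binding that did not pass the caller's threshold is not in the lists.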

Other observations

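Growing-only peaks with many tags lay near long stretches without peaks at a higher share than RB knockdown-only peaks did. For each chromosome the longest stretch free of peaks in all 3 lists was found, a measure chosen after the values were seen. Of RB knockdown peaks without a growing partner and with at least 100 tags, 21 of 4177 (0.503%) lay within 1 Mb of such a stretch. Of growing peaks without an RB knockdown partner and with at least 100 tags, 7 of 26 (26.9%, 95% exact interval 11.6% to 47.8%) did so, with a median FDR of 71.9%. The interval does not allow for neighbouring peaks that go together. With at least 50 tags, 12 of 210 growing peaks without a partner (5.71%) did so, against 9 of 1254 with a partner (0.718%). Over all peaks the shares were 0.898% in RB knockdown and 1.13% in growing cells. In number, 392 RB knockdown peaks and 107 growing peaks lay within 1 Mb of these stretches over all chromosomes. Chromosome 21 ran the other way. On chromosome 21, where the stretch ran from 10203666 to 13265959, the flanks held 1 RB knockdown peak and 10 growing peaks. The bin at 9 to 10 Mb of that chromosome had 0 RB knockdown and 7 growing peaks, the largest excess of growing peaks in any 1 Mb bin.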
